A study of Mus musculus with 4 samples.

Results

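The genes of prostaglandin and leukotriene synthesis were examined in RNA sequencing libraries of immortalized mouse macrophages. The group was chosen by name and holds 10 of the 55356 genes of the deposited table: *Pla2g4a*, *Ptgs1*, *Ptgs2*, *Ptges*, *Ptges2*, *Tbxas1*, *Hpgd*, *Alox5*, *Alox5ap* and *Lta4h*. Of these, 8 reached 10 normalized counts on average over the libraries, and *Alox5* and *Hpgd* lay below it. All cells derive from bone marrow-derived macrophages of *MK2*-knockout (KO) mice, which lack MAPKAP kinase 2, a stress kinase downstream of p38 MAP kinase. They were immortalized, transduced with a retroviral vector and sorted by GFP. i*MK2*-KO +*GFP* cells carry the empty vector, and i*MK2*-KO +*MK2* cells carry reintroduced *MK2*. The latter are called wild type in the sample labels, although the endogenous gene is knocked out there as well. For either line, 1 library is from untreated (UT) cells and 1 from cells given recombinant murine IL-1α (5 ng/mL) for 1 h. Each of the 4 conditions is 1 library and each genotype is 1 transduced line, so neither variation between cultures nor an effect of *MK2* apart from other differences between the lines could be measured, and no p-value is given. The study's methods describe its mice as adults of both sexes.

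Arachidonic acid is released from membrane phospholipids by phospholipases, foremost the cytosolic phospholipase A2α. Cyclooxygenases turn it into prostaglandin H2, from which terminal synthases make prostaglandin E2, thromboxane and other prostanoids. In the other branch, 5-lipoxygenase makes leukotriene A4 with the help of its activating protein, and a hydrolase turns this into leukotriene B4. Macrophages are known as a source of both kinds of lipid mediator. Cyclooxygenase-2, encoded by *Ptgs2*, is the inducible isoform, and its mRNA is a textbook case of an AU-rich transcript bound by tristetraprolin, an RNA-binding protein that MK2 phosphorylates.

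The normalized counts of a library summed to 24891906 at the lowest and 25733071 at the highest. In +*GFP* cells *Mapkapk2*, which encodes MK2, stood at 561 (UT) and 1585 (IL-1α) normalized counts against 38357 and 38141 in +*MK2* cells, the order that the labels give. Transcript counted under this name was thus not absent from +*GFP* cells, and its origin there was not examined. All 8 macrophage markers examined were present, with *Lyz2* between 59858 and 64591 normalized counts. Their summed level, of which *Lyz2* made up the largest part, ranged from 112976 to 123245. Markers of mast cells (7 genes) and fibroblasts (6 genes) were at 0 in every library, those of neutrophils (7 genes) summed to 5 to 8 and those of platelets (6 genes) to 3 to 8 normalized counts. Of the macrophage markers, 2 were higher and 5 lower beyond counting error in UT +*GFP* than in UT +*MK2* cells. Among all genes with a mean of at least 10 normalized counts, 30.8% were higher and 26.9% lower. At such high counts small differences also lie beyond counting error. *Mertk* had 421 and 364 normalized counts in +*GFP* cells (UT, IL-1α) against 1093 and 1168 in +*MK2* cells, and *Adgre1* had 3978 and 4140 against 6832 and 6330. *Fcgr1* had 1226 and 1194 against 2108 and 2216, and *Itgam* had 3750 and 3786 against 4186 and 4304. *Cd68* was only slightly lower, with 15734 and 16085 against 16876 and 16660. The 2 higher markers were *Csf1r*, with 23227 and 27561 against 20290 and 21305, and *Spi1*, with 4782 and 5524 against 4551 and 4663. The part of such differences in the values that follow was not tested.

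*Ptgs2* held the most copies of an AU-rich motif in the group. The region after the stop codon of its longest coding transcript (GENCODE M21, GRCm38) holds 14 copies of the AU-rich pentamer ATTTA in 2445 bases, and 6 copies of the longer form TATTTAT. Over 10559 expressed genes with at least 50 bases after the stop codon, the median was 2 pentamers in a median length of 1157 bases. As many pentamers as in *Ptgs2* or more occurred in 2.82% of these genes, and as many of the longer form or more in 0.341%. *Ptges2*, *Pla2g4a* and *Hpgd* each hold 4 pentamers, *Alox5* and *Alox5ap* 2 each, and *Ptgs1*, *Ptges*, *Lta4h* and *Tbxas1* 0. Per kb after the stop codon, however, *Pla2g4a* with 9.03 pentamers exceeded *Ptgs2* with 5.73, as its region is only 443 bases long. The longer form also occurred once in *Alox5* and once in *Hpgd*, and in no other gene of the group. The stretch of 30 bases with the most pentamers in *Ptgs2* lies at bases 12 to 41 after the stop codon. It is shown with the 4 pentamers it contains in capitals. Whether it bears on the *Ptgs2* values of these libraries was not tested, as neither mRNA stability nor protein binding was measured in them.
*Ptgs2* AU-rich stretch: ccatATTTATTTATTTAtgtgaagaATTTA

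Promoter windows from RefSeq (GRCm38.p6) were available for 9 of the 10 genes, in 10 windows of 250 bases before and 30 bases after a transcription start. Both strands were searched for 7 motifs. The core of the cAMP response element was written as ACGTCA and the site of C/EBP factors as TTGCGCAA. The E-box, bound by basic helix-loop-helix factors, was written as CACGTG. The AP-1 site, bound by Fos and Jun proteins, was written as TGACTCA. The GC box of Sp1-like factors was written as GGGCGG, and the TATA box, which lies upstream of many transcription starts, as TATAAA. The NF-κB motif was searched as its usual degenerate form. The windows of *Ptgs2* and *Ptges*, the pair that was at least 2-fold higher after IL-1α in +*GFP* cells, are shown with that of *Ptgs1*, the other cyclooxygenase gene, and that of *Tbxas1*, which was at least 2-fold lower in +*GFP* cells with and without IL-1α. Capitals mark the matches. *Ptgs2* (chr1:150099781-150100060, plus strand) holds ACGTCA and CACGTG in overlap, TTGCGCAA and GGGCGG. *Ptges* (chr2:30903268-30903547, minus strand) holds 2 copies of GGGCGG, *Tbxas1* (chr6:38918736-38919015, plus strand) holds overlapping TATA box matches on both strands, and *Ptgs1* (chr2:36230176-36230455, plus strand) holds none of these letters.
*Ptgs2* promoter: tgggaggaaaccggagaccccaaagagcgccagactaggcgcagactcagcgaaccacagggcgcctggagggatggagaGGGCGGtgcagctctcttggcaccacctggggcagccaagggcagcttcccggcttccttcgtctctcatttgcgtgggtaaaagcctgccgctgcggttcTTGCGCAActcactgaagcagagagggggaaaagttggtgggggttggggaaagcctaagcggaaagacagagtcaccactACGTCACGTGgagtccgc
*Ptges* promoter: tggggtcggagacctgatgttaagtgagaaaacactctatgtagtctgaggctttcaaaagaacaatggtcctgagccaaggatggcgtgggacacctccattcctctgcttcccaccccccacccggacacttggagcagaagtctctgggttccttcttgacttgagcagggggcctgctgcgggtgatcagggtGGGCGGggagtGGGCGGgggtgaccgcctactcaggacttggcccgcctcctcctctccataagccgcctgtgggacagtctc
*Ptgs1* promoter: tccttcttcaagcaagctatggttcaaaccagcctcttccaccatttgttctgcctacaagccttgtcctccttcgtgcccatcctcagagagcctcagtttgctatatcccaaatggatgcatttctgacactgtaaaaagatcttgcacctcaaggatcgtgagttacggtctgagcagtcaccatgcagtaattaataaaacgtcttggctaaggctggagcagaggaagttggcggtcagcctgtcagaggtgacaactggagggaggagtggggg
*Tbxas1* promoter: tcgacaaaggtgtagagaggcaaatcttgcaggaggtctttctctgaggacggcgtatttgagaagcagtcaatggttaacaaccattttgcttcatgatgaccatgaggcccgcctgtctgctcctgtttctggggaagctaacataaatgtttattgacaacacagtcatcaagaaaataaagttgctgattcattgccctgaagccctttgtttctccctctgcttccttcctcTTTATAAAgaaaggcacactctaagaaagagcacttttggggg

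Among all 32851 promoter windows of the same length, ACGTCA occurred in 7.26%, CACGTG in 6.79%, TTGCGCAA in 0.18%, GGGCGG in 34.7% and TATAAA in 13.1%. Of the 10 windows of the group, ACGTCA and TTGCGCAA occurred in 1 each, CACGTG in 2, GGGCGG in 4 and TATAAA in 3. In windows not shown, CACGTG was also found in *Ptges2*, GGGCGG in *Alox5* and *Hpgd*, and TATAAA in *Pla2g4a* and *Hpgd*. The AP-1 letters (4.94% of all windows) and the NF-κB motif (4.22%) occurred in 0 of the 10 windows. A match is a description of the letters and not a measured binding site, and sites beyond these windows were not searched.

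**Figure D1:**
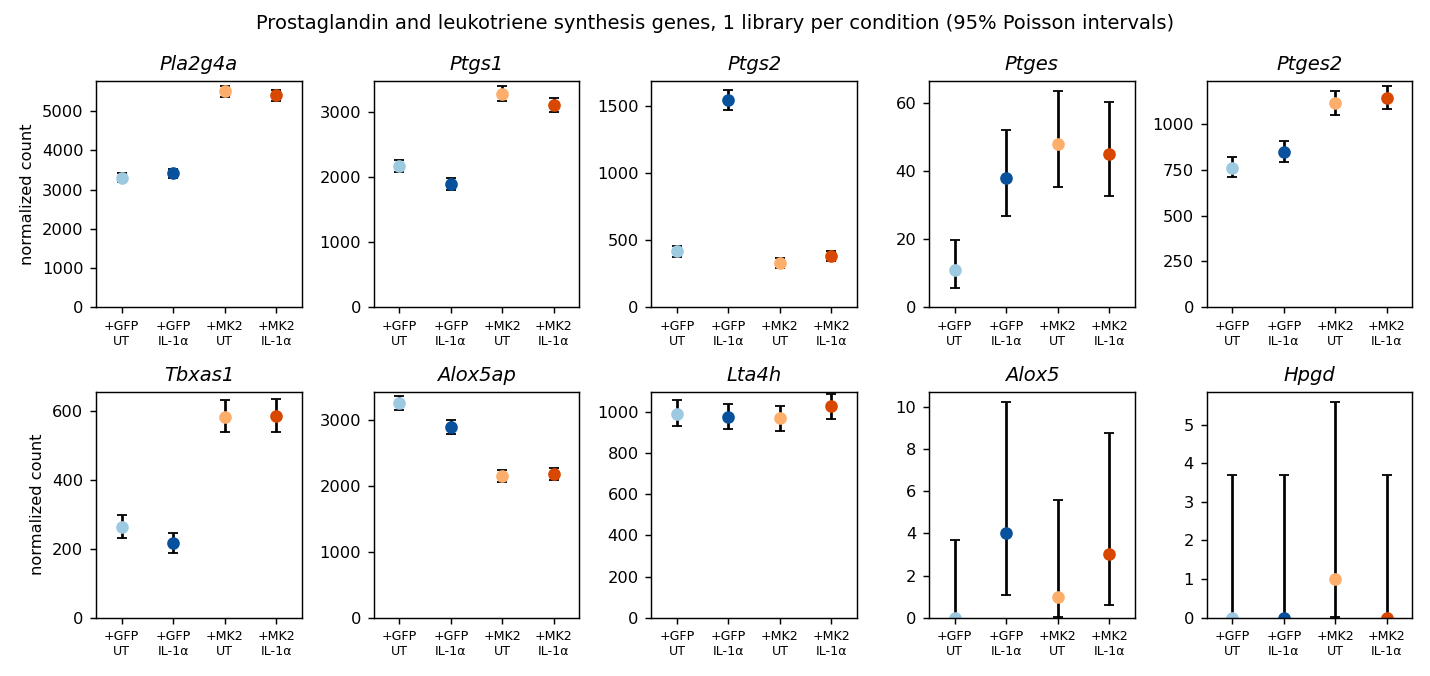
Normalized count (y axis, from 0) of the 10 genes in the 4 libraries, UT and IL-1α-treated +*GFP* (+GFP) and +*MK2* (+MK2) cells, with exact 95% Poisson intervals as bars. *Ptgs2* stands out in the IL-1α-treated +GFP library with 1544, and *Alox5* and *Hpgd* do not exceed 4 in any library.

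*Pla2g4a* (chromosome 1, 149705369 to 149837041 in the deposited table, whose positions are not those of GRCm38) encodes cytosolic phospholipase A2α, which releases arachidonic acid. Its normalized counts were 3304 (UT) and 3417 (IL-1α) in +*GFP* cells, and 5507 and 5408 in +*MK2* cells. It was lower in +*GFP* cells with and without IL-1α and differed little after IL-1α in each line. The log2 ratio of +*GFP* to +*MK2* cells was -0.74 in UT cells (interval -0.80 to -0.67) and -0.66 after IL-1α (-0.72 to -0.60). These ratios were taken after adding a pseudocount of 1, and the intervals are exact 95% Clopper-Pearson intervals that take the normalized counts as reads and cover counting error only. The IL-1α response of *Pla2g4a* was 0.05 (-0.02 to 0.12) in +*GFP* and -0.03 (-0.08 to 0.03) in +*MK2* cells, both within counting error.

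*Ptgs2* (chromosome 1, 149975782 to 149983978), on the same chromosome as *Pla2g4a*, encodes cyclooxygenase-2. Its normalized counts were 415 (UT) and 1544 (IL-1α) in +*GFP* cells, and 326 and 381 in +*MK2* cells. The IL-1α-treated +*GFP* library was thus far above the other 3. The log2 response to IL-1α was 1.89 (1.74 to 2.06) in +*GFP* cells, 3.71-fold, and 0.22 (0.01 to 0.44) in +*MK2* cells, 1.17-fold. With library totals set equal, the interval of the latter response included 0. Between the lines the log2 ratio was 0.35 (0.14 to 0.56) in UT cells and 2.02 (1.86 to 2.18) after IL-1α, so a small difference before treatment became a 4.04-fold difference. The responses differed by 1.67 on the log2 scale, and whether they differ beyond variation between cultures was not tested.

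*Ptgs1* (chromosome 2, 36120438 to 36142284) encodes cyclooxygenase-1, the constitutive isoform. Its normalized counts were 2168 (UT) and 1888 (IL-1α) in +*GFP* cells, and 3277 and 3103 in +*MK2* cells. In contrast to *Ptgs2*, it was lower in +*GFP* cells, by -0.60 (-0.67 to -0.52) in UT cells and -0.72 (-0.80 to -0.63) after IL-1α. After IL-1α it was slightly lower in both lines, at -0.20 (-0.29 to -0.11) in +*GFP* and -0.08 (-0.15 to -0.01) in +*MK2* cells. The latter lay within counting error if reads are taken as 0.7 times the values. Per kb of its longest coding transcript, *Ptgs1* exceeded *Ptgs2* in all 4 libraries. *Ptgs2* made up 11% of the summed level per kb of both genes in UT and 34.5% in IL-1α-treated +*GFP* cells, and 6.02% and 7.33% in +*MK2* cells. With the merged exons of each gene as the length these shares were 14, 41, 7.78 and 9.43%, with the same order of the libraries. The length decides their size, and both sets show that the cyclooxygenase transcripts of IL-1α-treated +*GFP* cells held the largest share of *Ptgs2* among the 4 libraries.

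**Figure D2:**
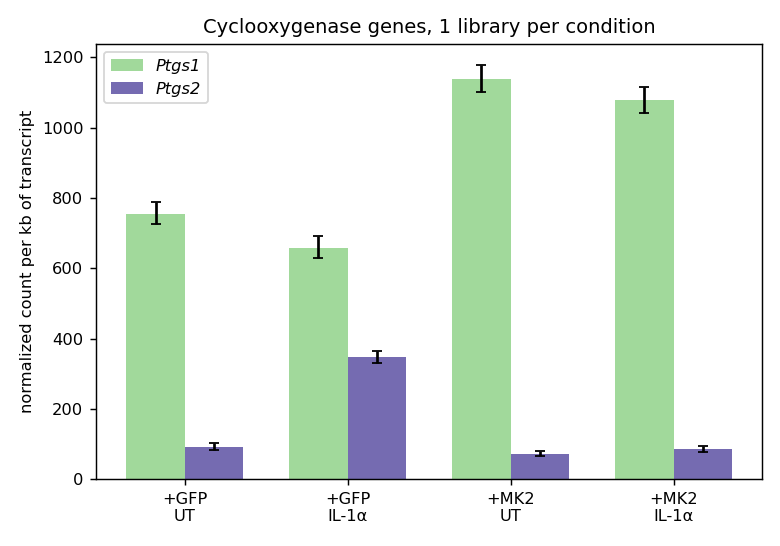
Level of *Ptgs1* and *Ptgs2* (y axis, normalized count per kb of the longest coding transcript, from 0) in the 4 libraries, with exact 95% Poisson intervals as error bars. *Ptgs1* is the higher gene throughout, between 659 and 1140 per kb, and *Ptgs2* lies between 73.2 and 347 per kb.

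*Ptges* (chromosome 2, 30779483 to 30819875) encodes the inducible microsomal prostaglandin E synthase-1, which acts downstream of the cyclooxygenases. Its normalized counts were low, at 11 (UT) and 38 (IL-1α) in +*GFP* cells and 48 and 45 in +*MK2* cells. The UT +*GFP* library was the lowest, and after IL-1α the lines did not differ beyond counting error. The log2 ratio between the lines was -2.03 (-3.22 to -1.16) in UT cells and -0.24 (-0.91 to 0.41) after IL-1α. The response to IL-1α was 1.70 (0.79 to 2.91) in +*GFP* cells and -0.09 (-0.71 to 0.52) in +*MK2* cells. *Ptges* and *Ptgs2* therefore both had higher values after IL-1α in +*GFP* cells, but *Ptges* came up to the level of +*MK2* cells whereas *Ptgs2* went beyond it.

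*Ptges2* (chromosome 2, 32285908 to 32295784) encodes another membrane-associated enzyme described as a prostaglandin E synthase. In +*GFP* cells it stood at 762 (UT) and 846 (IL-1α) normalized counts, and in +*MK2* cells at 1115 and 1141. The values of +*GFP* cells were lower at both times, with log2 ratios of -0.55 (-0.68 to -0.41) and -0.43 (-0.56 to -0.30). Its response to IL-1α was 0.15 (0.01 to 0.29) in +*GFP* cells and 0.03 (-0.09 to 0.15) in +*MK2* cells. The former was just beyond counting error and lay within it under each of the 3 other scalings, at 0.11 to 0.14, and with reads taken as 0.7 times the values.

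*Tbxas1* (chromosome 6, 38852338 to 39061519) encodes thromboxane A synthase. Its normalized counts were 264 (UT) and 216 (IL-1α) in +*GFP* cells, and 585 and 586 in +*MK2* cells. Both +*GFP* libraries lay below both +*MK2* libraries, with log2 ratios of -1.14 (-1.36 to -0.94) in UT cells and -1.44 (-1.67 to -1.21) after IL-1α. The response of *Tbxas1* to IL-1α was -0.29 (-0.56 to -0.02) in +*GFP* cells, within counting error if reads are taken as 0.7 times the values, and 0.00 (-0.17 to 0.17) in +*MK2* cells. *Hpgd* (chromosome 8, 56747620 to 56774078), whose product inactivates prostaglandins, had 1 normalized count in UT +*MK2* cells and 0 in the other libraries. Its Poisson intervals reached no higher than 5.57, and no fold is given.

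The leukotriene branch was present in part. *Alox5* (chromosome 6, 116387038 to 116438139), which encodes 5-lipoxygenase, was at 0 (UT) and 4 (IL-1α) in +*GFP* cells, and at 1 and 3 in +*MK2* cells. Their Poisson intervals overlapped and reached no higher than 10.2, so a difference was not detectable at this depth. *Alox5ap* (chromosome 5, 149201577 to 149224963), which encodes the 5-lipoxygenase activating protein, reached by contrast 3261 (UT) and 2900 (IL-1α) in +*GFP* cells, and 2160 and 2179 in +*MK2* cells. It was higher in +*GFP* cells by 0.59 (0.52 to 0.67) and 0.41 (0.33 to 0.49) on the log2 scale, and its response to IL-1α was -0.17 (-0.24 to -0.10) in +*GFP* and 0.01 (-0.07 to 0.10) in +*MK2* cells. *Lta4h* (chromosome 10, 93289273 to 93320737), which encodes leukotriene A4 hydrolase, had 993 (UT) and 977 (IL-1α) in +*GFP* cells, and 969 and 1030 in +*MK2* cells. It stayed within counting error in all 4 comparisons, with log2 ratios between -0.08 and 0.09, except that scaling to *Gapdh* gave -0.18 (-0.31 to -0.05) between the IL-1α-treated lines. The activating protein and the hydrolase were thus expressed in each library while the lipoxygenase itself was close to 0.

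Per kb of transcript, *Alox5ap* was the highest of the 8 genes in +*GFP* cells, with 2610 (UT) and 2320 (IL-1α) normalized counts per kb, followed by *Pla2g4a* with 1160 and 1200. In +*MK2* cells *Pla2g4a* had 1930 and 1890 and *Alox5ap* 1730 and 1740. *Ptgs1* and *Lta4h* came next and *Ptges* was last, at 3.02 to 13.2. *Ptgs2* was last but for *Ptges* in 3 libraries, at 73.2 to 93.2 per kb, and stood above *Ptges2* and *Tbxas1* in IL-1α-treated +*GFP* cells, at 347. With these lengths, neighbours in the order had separate Poisson intervals except *Ptges2* and *Tbxas1* in UT +*GFP* cells, at 153 and 133. The lengths are those of the longest coding transcripts in GENCODE M21, and much of the order depends on them. With merged exons, *Alox5ap* was highest in all 4 libraries, with 1520 against 862 for *Pla2g4a* in UT +*MK2* cells, *Ptgs1* passed *Pla2g4a* in UT +*GFP* cells (558 against 517), and *Ptges2* passed *Lta4h* in 3 libraries. With either length *Ptges* was last, and *Ptgs2* stood higher in the order in IL-1α-treated +*GFP* cells than in the other 3 libraries.

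The 8 genes were counted beside all 12483 genes that passed the same minimum of 10. In UT cells, 0 of the 8 genes were at least 2-fold higher in +*GFP* than in +*MK2* cells, where 3.51% of all genes were. *Ptges* and *Tbxas1* (2 genes) were at least 2-fold lower, against 5.26% of all genes. Beyond counting error, *Ptgs2* and *Alox5ap* (2 genes) were higher, against 30.8% of all genes, and *Pla2g4a*, *Ptgs1*, *Ptges*, *Ptges2* and *Tbxas1* (5 genes) were lower, against 26.9%. The median log2 ratio of the 8 genes was -0.57, and that of all genes 0.02.

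After IL-1α, *Ptgs2* was the 1 gene at least 2-fold higher in +*GFP* cells (4.16% of all genes) and *Tbxas1* the 1 gene at least 2-fold lower (5.57%). Beyond counting error, 2 genes were higher (33.7% of all genes) and 4 lower (26.3%), since *Ptges* now lay within it. The median was -0.33, against 0.03 for all genes. For the response to IL-1α of +*GFP* cells, *Ptgs2* and *Ptges* were at least 2-fold higher (2 of 8, against 2.25% of all genes) and 0 genes were at least 2-fold lower (1.59%). Beyond counting error 3 genes were higher (20% of all genes), the third being *Ptges2*, which lay within it under all 3 other scalings, and *Ptgs1*, *Alox5ap* and *Tbxas1* (3 genes) were lower (12.3%).

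In +*MK2* cells, 0 genes were 2-fold higher (0.889% of all genes) or 2-fold lower (1.03%) after IL-1α. *Ptgs2* alone was higher (11.4% of all genes) and *Ptgs1* alone lower (8.23%) beyond counting error, and the other 6 of the 8 genes lay within it. The median response was 0.01 in both lines, for the 8 genes as for all genes. The responses of the 8 genes in +*GFP* cells were spread between *Tbxas1* at -0.29 and *Ptgs2* at 1.89.

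**Figure D3:**
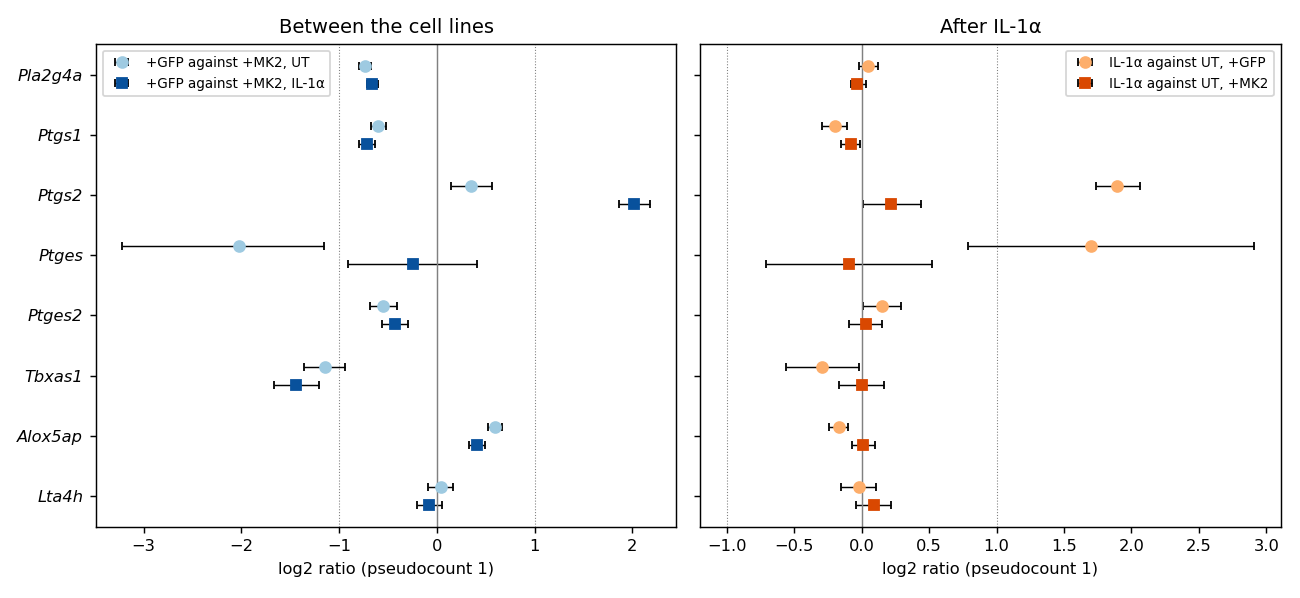
Log2 ratios (x axis, pseudocount of 1) of the 8 genes that passed the minimum mean of 10, between the cell lines (left) and after IL-1α (right), with 95% Clopper-Pearson intervals of counting error and dotted lines at 2-fold. *Ptgs2* reaches 2.02 between the lines after IL-1α, and *Ptges* has the widest intervals.

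The other genes of the pathway were taken from 5 lists with 70 names, of which 1 (*Ptgr3*) was not matched by name. Among 22 genes of arachidonate release and reacylation, 15 had a mean of at least 10. In UT cells 1 of these was at least 2-fold lower in +*GFP* cells, against 5.26% of all genes. It was *Pla2g4b*, another cytosolic phospholipase A2 gene, with 11 against 37 normalized counts (log2 ratio -1.66, -2.87 to -0.75). After IL-1α *Pla2g4b* had 26 against 31 (-0.25, -1.06 to 0.55). As for *Ptges*, the UT +*GFP* library was the lowest, at 11 normalized counts for both genes, and whether their courses are alike was not tested. *Lpcat2*, a lysophospholipid acyltransferase gene, was at least 2-fold higher in +*GFP* cells after IL-1α, with 721 against 299 normalized counts (1.27, 1.07 to 1.47), where UT cells had 505 against 295. *Pla2g5*, encoding a secreted phospholipase A2, lay between 995 and 1114 in all libraries. Beyond counting error, 4 of the 15 genes were higher and 7 lower in UT +*GFP* cells, where 30.8% and 26.9% of all genes were. Their median log2 ratio was -0.12 in UT cells and -0.11 after IL-1α.

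Among 16 further prostanoid and lipoxygenase enzymes, 7 had a mean of at least 10. Beyond counting error, 6 of these were higher and 1 lower in UT +*GFP* than in UT +*MK2* cells, against 30.8% and 26.9% of all genes. Their median log2 ratio was 0.22. *Ltc4s*, which encodes leukotriene C4 synthase, was at least 2-fold higher in +*GFP* cells, with 101 (UT) and 99 (IL-1α) normalized counts against 17 and 28 in +*MK2* cells. These are log2 ratios of 2.50 (1.82 to 3.41) and 1.79 (1.20 to 2.48). *Hpgds*, the prostaglandin D synthase gene of blood cells, reached 5254 at the highest, in UT +*MK2* cells, and 4954 in UT +*GFP* cells, and *Ptges3*, a co-chaperone gene also described as a prostaglandin E synthase, between 6767 and 7781. The other lipoxygenase genes, *Alox12*, *Alox15*, *Alox12b*, *Alox8*, *Alox12e* and *Aloxe3*, all had means below 10. *Alox15* did not exceed 6 and *Aloxe3* did not exceed 13 in any library.

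Of 15 genes of eicosanoid export and breakdown, 9 had a mean of at least 10. In UT +*GFP* cells 3 of these were higher (30.8% of all genes), 3 lower (26.9%) and 3 within counting error. *Dpep2*, whose product cleaves leukotriene D4, was at 726 (UT) and 822 (IL-1α) in +*GFP* cells against 241 and 215 in +*MK2* cells, log2 ratios of 1.59 (1.38 to 1.81) and 1.93 (1.72 to 2.16). Its name is shared by an overlapping gene with at most 8, and the counting could have split reads between both. *Ptgr1*, which encodes an enzyme of prostaglandin and leukotriene B4 breakdown, was lower in +*GFP* cells, with 415 and 331 against 760 and 765, and passed 2-fold after IL-1α (-1.21, -1.40 to -1.02). The exporter genes *Abcc1* and *Abcc4* differed between the lines by no more than 0.06 on the log2 scale.

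Of the 9 prostanoid receptor genes, 3 had a mean of at least 10. *Ptgir*, the prostacyclin receptor gene, was at 904 (UT) and 875 (IL-1α) in +*GFP* cells against 153 and 160 in +*MK2* cells, log2 ratios of 2.55 (2.31 to 2.82) and 2.44 (2.21 to 2.70). *Ptger4*, which encodes the prostaglandin E2 receptor EP4, had 395 and 839 in +*GFP* cells against 401 and 465 in +*MK2* cells. It lay within counting error between the UT lines (-0.02, -0.23 to 0.18), and its response to IL-1α was 1.08 (0.91 to 1.26) in +*GFP* and 0.21 (0.02 to 0.41) in +*MK2* cells. The thromboxane receptor gene *Tbxa2r* did not exceed 2 in any library. Of 8 leukotriene and lipoxin receptor genes, *Cysltr1* alone had a mean of at least 10. This cysteinyl leukotriene receptor gene had 297 and 284 normalized counts in +*GFP* cells against 116 and 140 in +*MK2* cells, log2 ratios of 1.35 (1.04 to 1.68) and 1.02 (0.72 to 1.32).

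**Figure D4:**
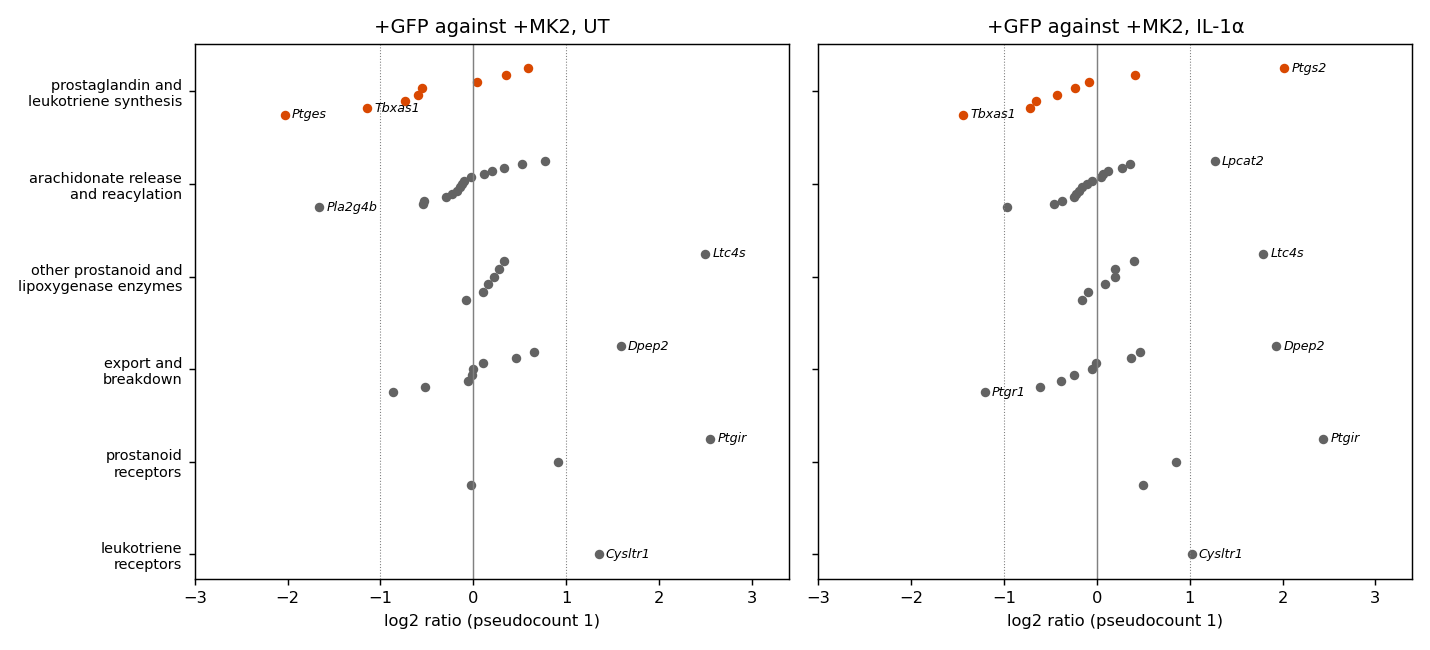
Log2 ratio of +*GFP* to +*MK2* cells (x axis, pseudocount of 1) in UT (left) and IL-1α-treated cells (right) for the genes of each pathway list with a mean of at least 10, 1 point per gene, with dotted lines at 2-fold and names beyond them. *Ptgir* and *Ltc4s* lie farthest to the right in UT cells, at 2.55 and 2.50, and *Ptges* farthest to the left, at -2.03.

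**Figure D5:**
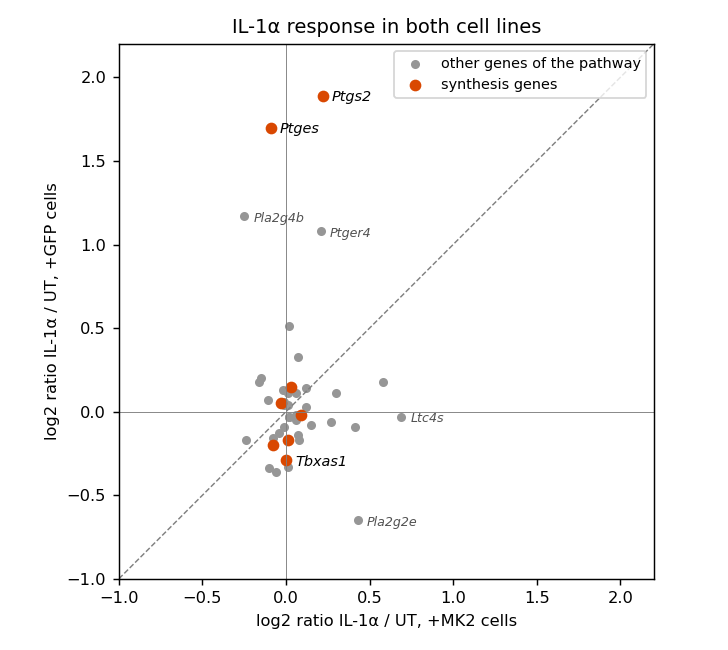
Log2 ratio of IL-1α-treated to UT cells (pseudocount of 1) in +*MK2* (x axis) and +*GFP* cells (y axis) for the synthesis genes and the other pathway genes with a mean of at least 10, 1 point per gene, with a dashed line of equal response. *Ptgs2*, *Ptges*, *Pla2g4b* and *Ptger4* lie above the line, at 1.89, 1.70, 1.17 and 1.08 in +*GFP* cells. The value of *Pla2g4b* rests on 11 and 26 normalized counts, with an interval of 0.17 to 2.41.

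*Ptgs2*, *Ptges* and *Tbxas1* had the widest range over the libraries among the 8 genes, at 2.24, 2.03 and 1.44 on the log2 scale. For each of them, the 5 genes with the nearest profile over the 4 libraries were determined by Euclidean distance of centred log2 values. Nearest to *Ptgs2* were *Rapgef2* (distance 0.16), *Btg2* (0.17), *Pdgfb* (0.20), *Kcnj2* (0.24) and *Rasgef1b* (0.28). *Btg2*, an immediate-early gene, had 442 and 1429 normalized counts in +*GFP* and 348 and 401 in +*MK2* cells. Nearest to *Tbxas1* were *Rab3il1* (0.07), *Cab39l* (0.08), *Cxcr3* (0.08), *Cbx6* (0.09) and *Chst14* (0.10). The genes nearest to *Ptges* were *Gm49327* (0.14), *Ndufab1-ps* (0.18), *Yjefn3* (0.28), *Rpl29-ps2* (0.29) and *Trim46* (0.29), of which only *Trim46* exceeded 21 normalized counts in any library. With 4 libraries, these distances describe the profiles and nothing more.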

How the data were processed

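RNA was sequenced from macrophages of both lines, UT or IL-1α-treated, with 1 library per condition. The labels describe poly(A) selection and reads from both ends, the paper's methods ribo-depletion and single reads. The authors deposited 1 table with a score for each gene and library, which they describe as DESeq2 normalized counts, in whole numbers. Column headers carry the name of salmon's output, and versions are not given in the sources used here. The processing notes name GRCm38, but of 12459 genes found in GENCODE M21 only 286, and 0 of the 10 described here, had the positions of that build. Positions are therefore those of the table, whose build it does not name, whereas sequences and transcript lengths are from GRCm38.

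The values were used as deposited. Ratios were computed in Python 3.11.15 (numpy 2.4.6, scipy 1.17.1) with a pseudocount of 1 for genes whose mean was 10 or more. The calculation was tested on simulated Poisson counts. These hold neither variation between cultures nor normalization, so the test checks the arithmetic and not how well the intervals suit the real values. Intervals take normalized counts as reads, so they are approximate. Beside the 10 genes, those of other pathway lists with a ratio of at least 2-fold in any comparison, and the nearest profiles of 3 genes, were named by rule, and further genes to describe a list after their values were seen. The genes and lists were chosen with earlier results of these data known. Alternatives were 3 scalings, 2 pseudocounts, other minimum means and limits, and reads of 0.7 or 1.3 times the values.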

Additional observations from a re-analysis of the deposited data

Results flagged for a closer look

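The responses of *Ptges* to IL-1α had opposite signs in the cell lines, with log2 ratios of 1.70 (0.79 to 2.91) in +*GFP* and -0.09 (-0.71 to 0.52) in +*MK2* cells, the latter within counting error. The difference was not tested, as each condition is 1 library. *Tbxas1* was at -0.29 in +*GFP* and 0.00 in +*MK2* cells. The latter (585 and 586 normalized counts) has no clear sign, as it was -0.01 with equal totals. *Alox5ap* was at -0.17 and 0.01. For *Tbxas1* and *Alox5ap* only the value of +*GFP* cells lay beyond counting error, and their differences were not tested either. For *Pla2g4a*, at 0.05 and -0.03, and *Lta4h*, at -0.02 and 0.09, the responses of both lines lay within counting error.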

How the results depend on the processing

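Of the counts and medians recomputed under 10 alternatives, 144 stayed within their limits and 11 moved. The limit was 1.5 times for counts, and for medians it was taken from the medians of the genes' interval bounds. The latter describes the counting error of a typical gene and not that of a median. No ratio of at least 2-fold changed sign. Without a filter on low values, *Alox5* and *Hpgd* entered, so that in UT cells 4 genes were at least 2-fold lower in +*GFP* cells. In +*MK2* cells 1 gene was then 2-fold higher and 1 lower after IL-1α. In +*GFP* cells 3 genes were then at least 2-fold higher after IL-1α, the third being *Alox5* at 0 and 4 normalized counts. With a mean of at least 50, *Ptges* was left out, so that 1 gene was 2-fold lower in UT +*GFP* cells and 1 gene 2-fold higher in +*GFP* cells after IL-1α. A limit of 1.5-fold gave 1 gene higher and 4 lower in UT +*GFP* than in UT +*MK2* cells, and 3 lower between IL-1α-treated cells. The shares of all genes given above hold for a mean of at least 10 and a 2-fold limit or counting error. For the other filters and the 1.5-fold limit no such share is given, so these counts cannot be set against all genes. In +*MK2* cells the count of genes higher after IL-1α beyond counting error was 0 with equal totals, and 0 higher and 0 lower with reads taken as 0.7 times the values, so the small responses of *Ptgs2* and *Ptgs1* there depend on these settings. In +*GFP* cells the response of *Ptges2* fell within counting error under all 3 scalings and with 0.7 times the reads, and that of *Tbxas1* with 0.7 times the reads. Scaling to *Gapdh* took 3 ratios between the IL-1α-treated lines out of their intervals, *Alox5ap* to 0.31, *Pla2g4a* to -0.76 and *Ptgs1* to -0.82. The share of *Ptgs2* and the levels per kb changed with the length used, an alternative chosen after seeing the data. No paired analysis was possible because each condition has 1 library.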
